A study of Homo sapiens with 4 samples.

Results

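The circadian clock genes described here are CLOCK, PER1, PER2, PER3, CRY1, CRY2, NR1D1, NR1D2, DBP and TEF. They were chosen by name, and all 10 are listed among the 17755 genes of the expression table. SK-MEL-28 and A375, established human melanoma cell lines, were transfected with a control siRNA (siNC) or with siRNA against the long non-coding RNA LINC00622 (siLINC00622) at about 70% confluency. Cells of all 4 conditions spent 6 h without serum and were harvested after 24 h in medium with 10% serum, so the clock was read at 1 time point. Poly(A)-selected RNA was sequenced as 1 library for each line and treatment, and no difference within a line has a replicate check. Each line is 1 culture per treatment, so the line and the culture cannot be told apart.

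The clock is a feedback loop of transcription. CLOCK pairs with BMAL1 and drives genes with E-box elements in their promoters, among them the PER, CRY and NR1D genes and DBP and TEF; PER and CRY proteins then inhibit CLOCK and BMAL1, and NR1D1 and NR1D2 (REV-ERB alpha and beta) repress genes with RORE elements such as BMAL1. DBP and TEF bind D-box elements. Return to serum is a classical way to set the phase of cultured cells, in which E-box driven and RORE driven genes typically peak on opposite sides of the cycle.

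Library totals were between 31269923 and 36384819 counts, and between 99.7% and 99.8% of them fall on listed genes. LINC00622, the targeted gene, had 309 (siNC) and 135 (siLINC00622) counts in SK-MEL-28, against 135 and 86 in A375. Values given in pairs for a line are siNC first and siLINC00622 second. Of 9 markers of the melanocyte lineage, all were listed, and their summed level was 9162 and 9536 CPM (counts scaled to the library total) in SK-MEL-28, against 687 and 805 CPM in A375. SOX10, a lineage transcription factor, had at least 15109 counts in each library, whereas the pigment genes MLANA and PMEL had at most 314 counts in A375. Of the leukocyte and endothelial markers, 0 were listed, and of 3 fibroblast markers only LUM was. LUM had 803 and 892 counts in SK-MEL-28, against 187 and 372 in A375, where its log2 ratio of siLINC00622 over siNC was 0.78, and its part in the results was not tested. KRT14, a keratin of basal epithelium, had 494 and 504 counts in A375 and 6 and 2 in SK-MEL-28, and its part in the differences between lines was not tested.

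Elements of both arms of the loop are shown here because genes are compared by arm below; the arms themselves were listed from general knowledge and not from these matches. RefSeq promoter windows of GRCh38.p14, from 250 bases before to 50 after a start, were matched for all 10 members and BMAL1 (15 windows for the members), and each line shows 30 bases on the gene's strand, 5′ to 3′, with the element in capitals.
PER1 E-box, chr17:8152560-8152589, minus strand: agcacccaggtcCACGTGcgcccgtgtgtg
NR1D2 E-box, chr3:23946004-23946033, plus strand: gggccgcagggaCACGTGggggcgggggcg
TEF E-box, chr22:41381737-41381766, plus strand: cacctggccccgCACGTGtctatcttatcc
CRY1 E-prime-box, chr12:107093621-107093650, minus strand: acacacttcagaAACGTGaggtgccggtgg
PER2 D-box, chr2:238288595-238288624, minus strand: cccgctgcggcTTACGTAAccgccgccggc
PER3 D-box, chr1:7784103-7784132, plus strand: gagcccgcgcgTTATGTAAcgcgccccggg
CLOCK RORE, chr4:55546131-55546160, minus strand: gctaggccttgTGACCCActttattcctgt
BMAL1 RORE, chr11:13277809-13277838, plus strand: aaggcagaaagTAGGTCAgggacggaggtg

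The E-box searched was CACGTG, which 4 of the 15 member windows hold and 7.26% of all 35116 windows. The E-prime-box CACGTT, which shares its first letters with the E-box and was searched on both strands like the others, is in 5 member windows and 5.34% of all. The D-box TTANGNAA is in 4 member windows and 10.2% of all, and the RORE TNGGTCA is in 3 and 9.45%. NR1D2 holds 2 E-boxes, a D-box and a RORE in its windows, and DBP holds none of these letters in its window. CLOCK and CRY2 each hold both an E-prime-box and a RORE. A match describes the letters of a window and was not taken as a bound site.

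The 10 members covered a wide range of levels in every library. FPKM, which the authors scaled for library total and gene length, allows levels of different genes to be compared. In the siNC library of SK-MEL-28 the members ran from 1.02 FPKM (DBP) to 8.91 FPKM (NR1D2), and with siLINC00622 from 0.821 FPKM (DBP) to 11.9 FPKM (PER3). In A375 they ran from 0.492 FPKM (PER3) to 17.6 FPKM (NR1D2) with siNC and from 0.402 FPKM (PER3) to 17.9 FPKM (NR1D2) with siLINC00622. PER3 was thus among the highest members in SK-MEL-28 and the lowest in A375, where 15.8% of all listed genes with siNC were below it. NR1D2 lay above 84.9% and 85.3% of all listed genes in A375. Over the members, the median was 4.59 and 3.90 FPKM (SK-MEL-28) and 2.57 and 2.06 FPKM (A375), beside 2.71 to 3.04 FPKM over all listed genes.

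The order of levels was close within a line. In both A375 libraries NR1D2, CLOCK, CRY1, NR1D1, PER1, TEF and CRY2 led in that order. In the siNC library of SK-MEL-28 the order was NR1D2, PER3, CLOCK, CRY1, TEF, CRY2, NR1D1, PER1, PER2 and DBP. Of its 9 neighbouring pairs, 3 did not differ beyond the 95% Clopper-Pearson interval of their counts, namely NR1D2 and PER3, CRY2 and NR1D1, and NR1D1 and PER1. With siLINC00622, CLOCK and CRY1, CRY2 and NR1D1, and NR1D1 and TEF did not. In A375 all neighbours differed beyond it with siNC, and with siLINC00622 CRY1 and NR1D1, TEF and CRY2, and DBP and PER2 did not. These intervals, and those of ratios below, cover counting error only, since reads carried no molecular identifiers.

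**Figure D1:**
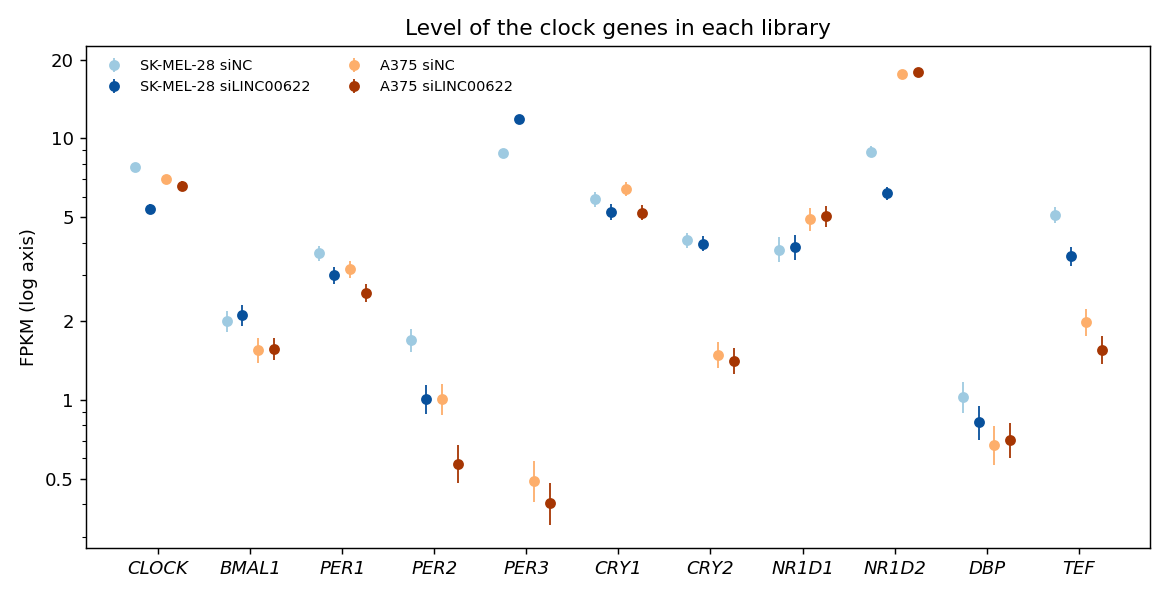
Level of the 10 clock genes and BMAL1 in each of the 4 libraries, as FPKM on a log axis; points are 1 library each and bars are exact 95% Poisson intervals of the counts, which cover counting error only. PER3 sits at 8.77 and 11.9 FPKM in SK-MEL-28 and at 0.492 and 0.402 FPKM in A375, and NR1D2 is the highest member in A375.

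The comparison of siLINC00622 with siNC asks whether the knockdown moved the clock genes, or whether cultures were harvested at different phases. PER2 was lower with siLINC00622 in both lines, by 1.66-fold in SK-MEL-28 and 1.74-fold in A375. It was the only member past 1.5-fold in either line. Counts were scaled within each line by the TMM method, and log2 ratios used a prior count of 2. In SK-MEL-28, 1 of 10 members passed 1.5-fold, beside 11.0% of the 15442 genes with at least 10 counts in 1 of its libraries (6.49% lower). In A375 it was 1 of 10, beside 8.86% of 16021 genes (4.34% lower). A log2 ratio past 1.5-fold on the lower side in both lines was found for 1.09% of the 14721 genes passing in both, and for 1 of the 10 members. The members' median log2 ratio was -0.28 for SK-MEL-28 and -0.17 for A375, beside -0.0040 and 0.0043 over all genes. Of the members, 6 were below 0 in both lines, beside 31.3% of all genes. In bulk RNA, fewer cells with a transcript and less of it per cell cannot be told apart.

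**Figure D2:**
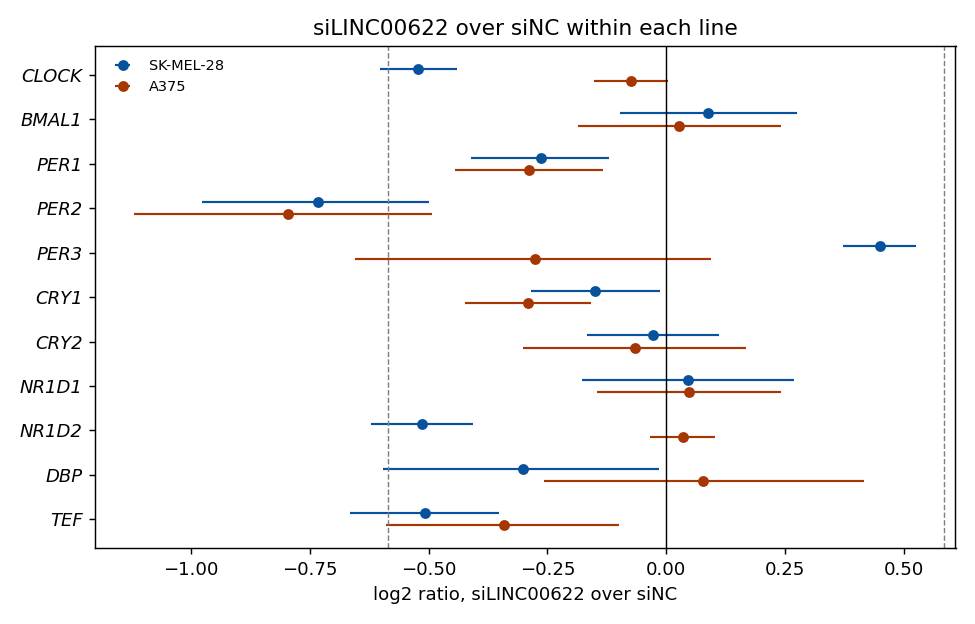
Log2 ratio of siLINC00622 over siNC for the clock genes and BMAL1 in SK-MEL-28 and A375; bars are 95% Clopper-Pearson intervals of the count ratios (counting error only), and dashed lines mark 1.5-fold. PER2 is at -0.73 and -0.80, BMAL1 and NR1D1 are near 0 in both lines, and PER3, CLOCK and NR1D2 differ between the lines.

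CLOCK, the DNA-binding partner of BMAL1, lies at chr4:55427903-55547138 (minus strand, GRCh38) and had 2972 and 2115 counts in SK-MEL-28, against 2520 and 2769 in A375. The log2 ratios of CLOCK were -0.52 (interval -0.60 to -0.44) and -0.07 (-0.15 to 0.0048). CLOCK was lower with siLINC00622 in SK-MEL-28 and within counting error of 0 in A375. BMAL1 (listed as ARNTL), which is not a member, had 459 and 499 counts in SK-MEL-28, against 336 and 396 in A375. Its log2 ratios were 0.09 (-0.10 to 0.28) and 0.03 (-0.19 to 0.24), so its counts did not separate the treatments in either line.

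PER1, PER2 and PER3 encode the Period repressors. PER1 (chr17:8140472-8156506, minus strand), which also responds to serum, glucocorticoid and cAMP signals, had 843 and 717 counts in SK-MEL-28, against 691 and 654 in A375. The log2 ratios of PER1 were -0.26 (interval -0.41 to -0.12) and -0.29 (-0.45 to -0.13), lower with siLINC00622 in both lines. PER2 (chr2:238244038-238290102, minus strand) had 385 and 236 counts in SK-MEL-28, against 216 and 143 in A375, with log2 ratios of -0.73 (-0.98 to -0.50) and -0.80 (-1.12 to -0.49). Among genes with at least 100 counts, its ratio was number 287 from the lowest of 11634 in SK-MEL-28 and number 73 of 12308 in A375.

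PER3 (chr1:7784320-7845177, plus strand) had 2360 and 3294 counts in SK-MEL-28, against 125 and 119 in A375. The log2 ratios were 0.45 (interval 0.37 to 0.53) and -0.28 (-0.65 to 0.09). PER3 was thus the only member whose interval lay above 0 in SK-MEL-28. An antisense gene, Z98884.1, shares 482 of the 8099 exon bases of PER3 on the opposite strand. It had 35 and 68 counts in SK-MEL-28 and 1 in each A375 library, and UTS2, also on the opposite strand, shares 868 exon bases with PER3 and is not listed in the table. The kit does not mark strand, so reads from a gene and an overlapping one on the other strand cannot be told apart.

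CRY1 and CRY2 encode the Cryptochrome repressors that act with the PER proteins. CRY1 (chr12:106991364-107093829, minus strand) had 928 and 855 counts in SK-MEL-28, against 957 and 904 in A375, and its log2 ratios were -0.15 (interval -0.29 to -0.01) and -0.29 (-0.42 to -0.16). CRY2 (chr11:45847118-45883248, plus strand) had 838 and 840 counts in SK-MEL-28, against 289 and 319 in A375, with log2 ratios of -0.03 (-0.17 to 0.11) and -0.07 (-0.30 to 0.17). CRY2 was within counting error of 0 in both lines.

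NR1D1 (chr17:40092787-40100725, minus strand), whose product represses BMAL1 and which swings widely over the cycle in many tissues, had 327 and 345 counts in SK-MEL-28, against 404 and 483 in A375. Its log2 ratios were 0.05 (interval -0.18 to 0.27) and 0.05 (-0.15 to 0.24). NR1D1 thus stayed within counting error of 0 in both lines. THRA shares 263 of the 2772 exon bases of NR1D1 on the opposite strand and had 1034 and 1613 counts in SK-MEL-28, against 1237 and 1649 in A375. The log2 ratios of THRA were 0.61 and 0.20, higher with siLINC00622 in both lines. The counts and ratios of NR1D1 are therefore uncertain, and the part of THRA reads in them was not tested. NR1D2 (chr3:23945260-23980618, plus strand), which encodes the related repressor, had 1709 and 1223 counts in SK-MEL-28, against 3185 and 3772 in A375. The log2 ratios of NR1D2 were -0.51 (-0.62 to -0.41) and 0.03 (-0.03 to 0.10), lower in SK-MEL-28 and within counting error of 0 in A375. NKIRAS1, whose body overlaps NR1D2, shares 0 exon bases with it. TMEM165 shares 76 exon bases with CLOCK.

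DBP and TEF encode PAR bZIP factors, which bind D-boxes and carry the rhythm to output genes. DBP (chr19:48630030-48637438, minus strand) had 220 and 182 counts in SK-MEL-28, against 136 and 166 in A375, with log2 ratios of -0.30 (interval -0.60 to -0.01) and 0.08 (-0.26 to 0.42). SPHK2, on the opposite strand, shares 661 of the 6544 exon bases of DBP and had more counts than DBP in every library, 702 and 843 in SK-MEL-28, against 1033 and 1357 in A375. The level of DBP is therefore uncertain. TEF (chr22:41367333-41399326, plus strand) had 795 and 571 counts in SK-MEL-28, against 292 and 266 in A375, with log2 ratios of -0.51 (-0.67 to -0.35) and -0.34 (-0.59 to -0.10). TEF was lower with siLINC00622 in both lines. The third gene of the family, HLF, is not listed in the table.

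A test of the treatment was possible only across lines, with the cell line as a block in edgeR's quasi-likelihood test, 4 libraries and 1 residual degree of freedom. Its p-values take the difference between the lines' ratios as the error, with information shared over all genes. Spread between cultures and a true difference between the lines cannot be told apart in that error. It called 0.448% of the 16742 genes tested at an adjusted p below 0.05 (75 genes), and 0 of the 10 members. At an unadjusted p below 0.05 it found 14.5% of all genes and 3 members. These 3 were PER2 with a log2 change of -0.76 (edgeR adjusted p = 0.11), TEF with -0.42 (adjusted p = 0.22) and PER1 with -0.27 (adjusted p = 0.33), each lower in 2 of 2 lines. The other 7 members had edgeR adjusted p-values from 0.37 to 0.92. DESeq2's Wald test gave an unadjusted p below 0.05 for 1 member and for 1167 of the 16742 genes. It called 0 members and 305 genes, and it gave no adjusted p for PER2, NR1D1 and DBP.

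By counting error alone, the ratios of CLOCK, NR1D2 and PER3 differed between the lines. The difference of log2 ratios, SK-MEL-28 minus A375, was -0.45 for CLOCK (95% counting interval, by a normal approximation, -0.56 to -0.34), -0.55 for NR1D2 (-0.67 to -0.42) and 0.73 for PER3 (0.36 to 1.10). For the other 7 members this interval included 0. It excluded 0 for 14 of the 32 other clock genes, so such a difference was not particular to the members. How often it excluded 0 over all genes was not counted, so the count of members cannot be set beside a background share. A difference between lines in the response could not be tested, because 1 library per condition leaves no residual degree of freedom for it.

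The siRNA target sequences are shown because short matches of an siRNA to other transcripts can lower those transcripts. The sources used here do not say which of these siRNAs the libraries received. Capitals mark the word that pairs with positions 2 to 8 of the guide strand.
siLINC00622_1 target: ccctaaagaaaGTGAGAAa
siLINC00622_2 target: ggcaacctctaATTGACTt

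In the longest 3′ UTR of each member (GRCh38, GENCODE 29), GTGAGAA occurs 2 times in CLOCK and ATTGACT 1 time in NR1D2, and neither word occurs in the other 8 members. BMAL1 holds GTGAGAA 1 time. The UTR searched has 7512 bases in CLOCK and 3199 in NR1D2, against 296 (NR1D1) to 3366 (TEF) in the other 8 members. How often the UTRs of other genes hold these words was not counted. CLOCK and NR1D2 were lower with siLINC00622 in SK-MEL-28 and near 0 in A375, and BMAL1 was near 0 in both lines. The part of these words in the ratios was not tested.

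Genes of both arms were then set side by side, since a shift of phase can move them in opposite directions in this loop. With 1 time point the position in the cycle is not known. The difference between the arms is therefore a description and not a measure of phase. In SK-MEL-28 the mean log2 ratio was -0.25 over 9 E-box and D-box driven genes (PER1, PER2, PER3, NR1D1, NR1D2, DBP, TEF, CIART and BHLHE41; range -0.73 to 0.45). It was 0.05 over 5 genes listed as RORE driven (BMAL1, NPAS2, CLOCK, NFIL3 and CRY1; range -0.52 to 0.59). CRY1 is a target of both kinds of element, its promoter window held an E-prime-box and 0 RORE matches, and the windows of NPAS2 and NFIL3 were not searched. The difference was -0.29 (95% counting interval -0.38 to -0.20). In A375 the means were -0.36 (range -0.94 to 0.08) and -0.00066 (range -0.29 to 0.35), a difference of -0.36 (-0.54 to -0.18). Without CRY1 it was -0.34 (SK-MEL-28) and -0.44 (A375). The arm lists left out CRY2, whose windows held an E-prime-box and a RORE, and BHLHE40, a repressor. CRY2 was at -0.03 and -0.07. BHLHE40 went the other way from BHLHE41, at 0.59 (interval 0.48 to 0.71) in SK-MEL-28 and 0.19 (0.03 to 0.36) in A375. The means therefore depend on which genes were listed. In both lines 6 of the 9 E-box and D-box driven genes were below 0, and of the 5 RORE driven genes 3 (SK-MEL-28) and 2 (A375) were above 0. The ranges of the arms overlapped, and members of an arm did not move as a block: PER2 and NR1D1, both of the E-box arm, were at -0.73 and 0.05 in SK-MEL-28. CIART, a repressor with 15 and 8 counts in A375, had the lowest value there. BHLHE41 had 90 and 59 counts in A375 and a log2 ratio of -0.80. With only genes of at least 100 counts, which leaves out both CIART and BHLHE41, the difference in A375 was -0.22.

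**Figure D3:**
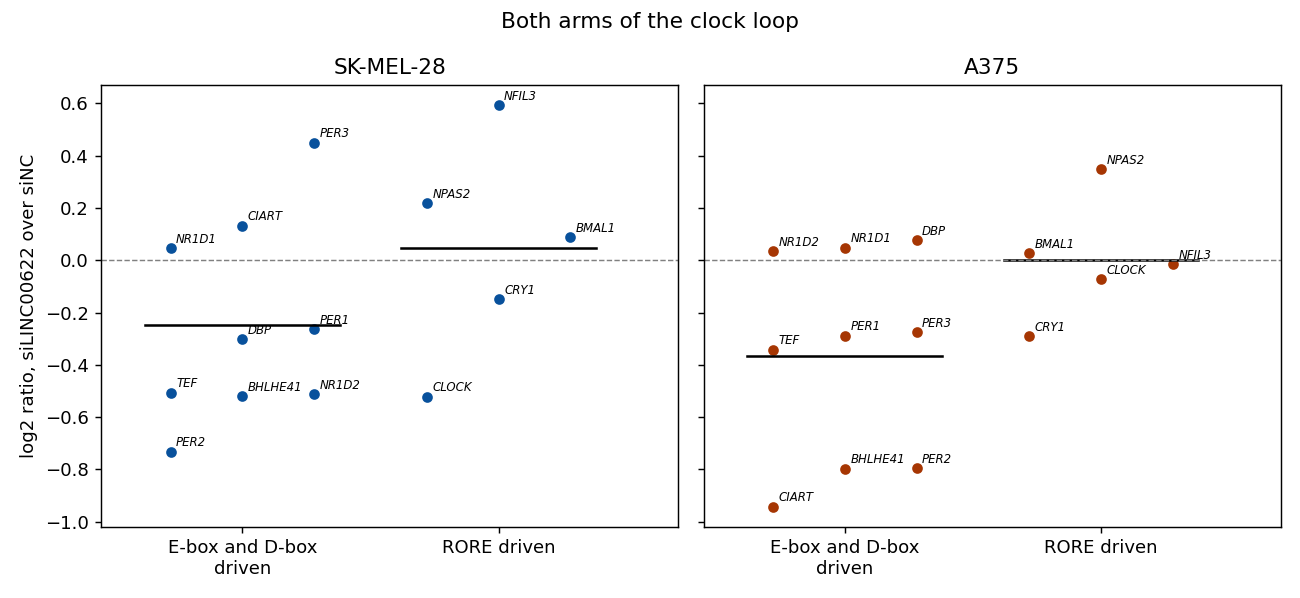
Log2 ratio of siLINC00622 over siNC for 9 E-box and D-box driven and 5 RORE driven clock genes in SK-MEL-28 and A375; each point is a gene, 1 library per condition, and black lines are means. The means are -0.25 and 0.05 in SK-MEL-28, against -0.36 and -0.00066 in A375, and the genes of both arms overlap in each line.

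Ratios within a library need no scaling between libraries. For SK-MEL-28, NR1D1 counts over BMAL1 counts gave a log2 value of -0.49 (interval -0.70 to -0.28) and -0.53 (-0.73 to -0.33). For A375 it was 0.27 (0.05 to 0.48) and 0.29 (0.09 to 0.48). The ratio differed between the lines, and with siLINC00622 it differed from siNC by -0.04 (-0.33 to 0.24) and 0.02 (-0.26 to 0.30). NR1D1 and BMAL1, which belong to opposite arms, thus kept their ratio within counting error in each line. With CLOCK or NPAS2 as the reference this did not hold in every case. Over CLOCK, NR1D1 was at -3.18 (-3.35 to -3.02) and -2.62 (-2.78 to -2.45) in SK-MEL-28, against -2.64 and -2.52 in A375, where the intervals overlapped. Over NPAS2 it was at -3.82 and -4.00 in SK-MEL-28, with overlapping intervals. In A375 it was at -2.50 (-2.66 to -2.35) and -2.81 (-2.95 to -2.67).

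PER2 gave another picture. Its log2 count ratio to BMAL1 was -0.25 and -1.08 in SK-MEL-28, against -0.64 and -1.47 in A375, a change of -0.83 (interval -1.12 to -0.53) and -0.83 (-1.20 to -0.46). For DBP the ratio was -1.06 and -1.46 in SK-MEL-28, against -1.30 and -1.25 in A375, a change of -0.39 (-0.73 to -0.06) and 0.05 (-0.34 to 0.44). These are ratios of counts and depend on gene length, so the levels of the 3 genes are not compared through them. With CLOCK as the reference, PER2 was at -2.95 (-3.11 to -2.79) and -3.16 (-3.36 to -2.97) in SK-MEL-28, and these intervals overlapped. In A375 it was at -3.54 (-3.75 to -3.34) and -4.28 (-4.53 to -4.03). With NPAS2 as the reference, PER2 was at -3.59 and -4.54 in SK-MEL-28, against -3.41 and -4.56 in A375.

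**Figure D4:**
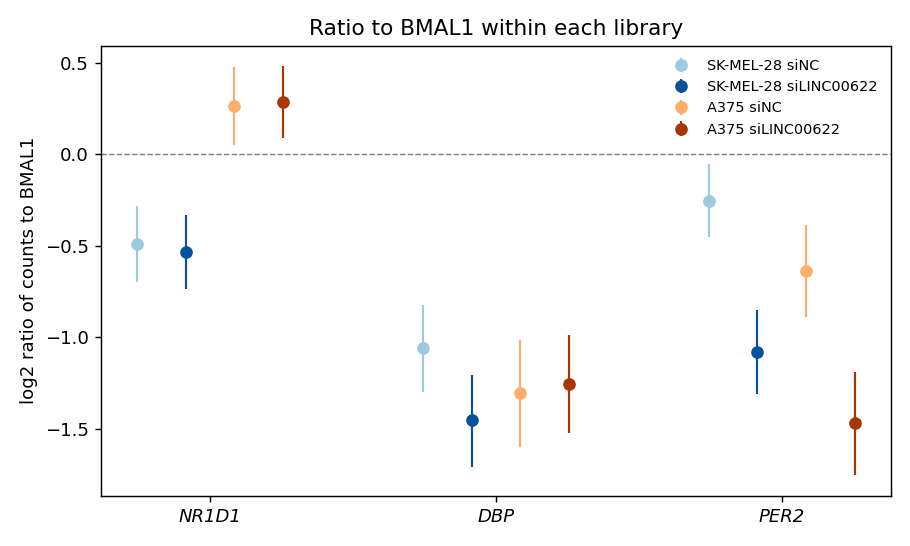
Log2 ratio of the counts of NR1D1, DBP and PER2 to those of BMAL1 within each of the 4 libraries; bars are 95% Clopper-Pearson intervals (counting error only). NR1D1 is at -0.49 and -0.53 in SK-MEL-28 and at 0.27 and 0.29 in A375, whereas PER2 is lower in the siLINC00622 library of both lines.

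Signals that reach PER1 and PER2 from outside the loop were recorded beside them. Of 14 listed genes of the serum and immediate early response, 3 were past 1.5-fold with siLINC00622 in SK-MEL-28 (2 higher, 1 lower), where 11.0% of all genes passed. For A375 the count was 0 of these 14, against a share of 8.86% over all genes. FOS, an immediate early gene, had 479 and 1280 counts in SK-MEL-28, against 101 and 130 in A375. The matrix gene CCN1 had 998 and 318 counts in SK-MEL-28, against 3610 and 4684 in A375. Of 7 listed glucocorticoid and cAMP response genes, set beside the same shares, 1 was past 1.5-fold, on the higher side, in each line. This was SGK1, a kinase gene, with 11738 and 18467 counts in SK-MEL-28, against 2068 and 3740 in A375. The glucocorticoid targets FKBP5 and TSC22D3 were below 0 in both lines, with log2 ratios of -0.42 and -0.31 for FKBP5 and of -0.15 and -0.19 for TSC22D3. Both intervals of TSC22D3 included 0 (-0.46 to 0.16 and -0.52 to 0.14). The other 5 of the 7 genes were above 0 in each line. Among them was KLF9, with log2 ratios of 0.14 and 0.38. PER1 was at -0.26 and -0.29 beside these values, and their part in the PER1 and PER2 ratios was not tested.

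Of 36 other clock genes, listed from general knowledge with earlier results of these data known, 32 are in the table. With siLINC00622 in SK-MEL-28, 4 were past 1.5-fold on the higher side and 3 on the lower side. In A375 these counts were 1 and 2. Over all genes, 11.0% passed in either direction in SK-MEL-28 and 8.86% in A375. Their median log2 ratio was -0.03 and -0.05. PPARGC1A, a coactivator of energy metabolism and an output of the clock, had 609 and 2040 counts in SK-MEL-28, against 31 and 92 in A375. Its log2 ratios were 1.71 (interval 1.58 to 1.85) and 1.31 (0.76 to 1.997), and it was the only other clock gene past 1.5-fold in the same direction in both lines. Of the 14721 genes passing in both lines, 0.693% were past 1.5-fold on the higher side in both. PPARGC1A was also the only other clock gene called in the fit across lines, where it rose by 1.63 on the log2 scale (edgeR adjusted p = 0.034, higher in 2 of 2 lines). Over the alternative fits its adjusted p ran from 5.22e-07 to 1.00.

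The other clock genes were also counted by group, to be read beside the 11.0% (SK-MEL-28) and 8.86% (A375) of all genes that passed. Among the activators other than BMAL1, 1 of 2 was past 1.5-fold on the lower side for SK-MEL-28, and 0 of 2 for A375. Of the 4 other repressors, 1 was higher in SK-MEL-28 and 2 were lower in A375. Of the 15 kinases, phosphatases and ubiquitin ligase genes, which set the stability of PER and CRY proteins, 2 were lower in SK-MEL-28 and 0 passed in A375. Of 8 output genes, 2 were higher in SK-MEL-28 and 1 in A375. RORB, which encodes an activator at RORE elements, did not pass 1.5-fold in either line.

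The comparison of the lines gives the level of each clock gene by line within each treatment. Scaling by library totals in place of TMM moves the median log2 ratio of SK-MEL-28 over A375 by -0.18 in siNC and -0.16 in siLINC00622 libraries, and the values below are those of TMM. With TMM, 6 of 10 members passed 1.5-fold in the siNC libraries, beside 57.0% of all genes, and 5 in the siLINC00622 libraries, beside 57.3%. The members were near the background share in both treatments.

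PER3 had the largest difference of the members, with 2360 against 125 counts in siNC and 3294 against 119 in siLINC00622 libraries, SK-MEL-28 before A375. Its log2 ratios were 4.31 (interval 4.08 to 4.61) and 5.02 (4.78 to 5.32), that is 19.9-fold and 32.5-fold higher in SK-MEL-28. CRY2 was 3.09-fold and 3.13-fold higher in SK-MEL-28 and TEF 2.90-fold and 2.55-fold. PER2 was 1.90-fold and 1.955-fold higher. NR1D2 was 1.74-fold and 2.58-fold lower in SK-MEL-28. DBP was 1.72-fold and 1.30-fold higher, and PER1 1.30-fold and 1.31-fold.

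CLOCK, CRY1 and NR1D1 were the members closest to equal between the lines. The log2 ratio of CLOCK was 0.34 (interval 0.26 to 0.41) in siNC and -0.13 (-0.22 to -0.05) in siLINC00622 libraries, with opposite signs. CRY1 was at 0.05 (-0.08 to 0.19) and 0.17 (0.04 to 0.31), and the value in siNC libraries was below 0 when scaled by library totals or with GC content and length trends taken out. NR1D1 was at -0.21 (-0.42 to 0.0068) and -0.23 (-0.43 to -0.03).

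The fit of cell line with treatment as a block, again with 1 residual degree of freedom, called 7 of 10 members at an adjusted p below 0.05, beside 67.7% of the 16742 genes tested. The members higher in SK-MEL-28 in edgeR's test were PER3 (log2 4.69, adjusted p = 1.7e-06), CRY2 (1.64, 2.8e-05), TEF (1.45, 7.9e-05), PER2 (0.95, 0.0016), DBP (0.59, 0.031) and PER1 (0.38, 0.017). NR1D2 was lower in SK-MEL-28, by log2 -1.09 (adjusted p = 0.00049). PER2, PER3, CRY2, NR1D2 and TEF were called in all 5 alternative fits, DBP in 3 and PER1 in 2. NR1D1 was called in 1 of them, scaling by library totals. BMAL1 was higher in SK-MEL-28 by 0.57 (edgeR adjusted p = 0.0075) and was called in 4 of the 5 alternative fits, with DESeq2's Wald test as the exception (adjusted p = 0.061).

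**Figure D5:**
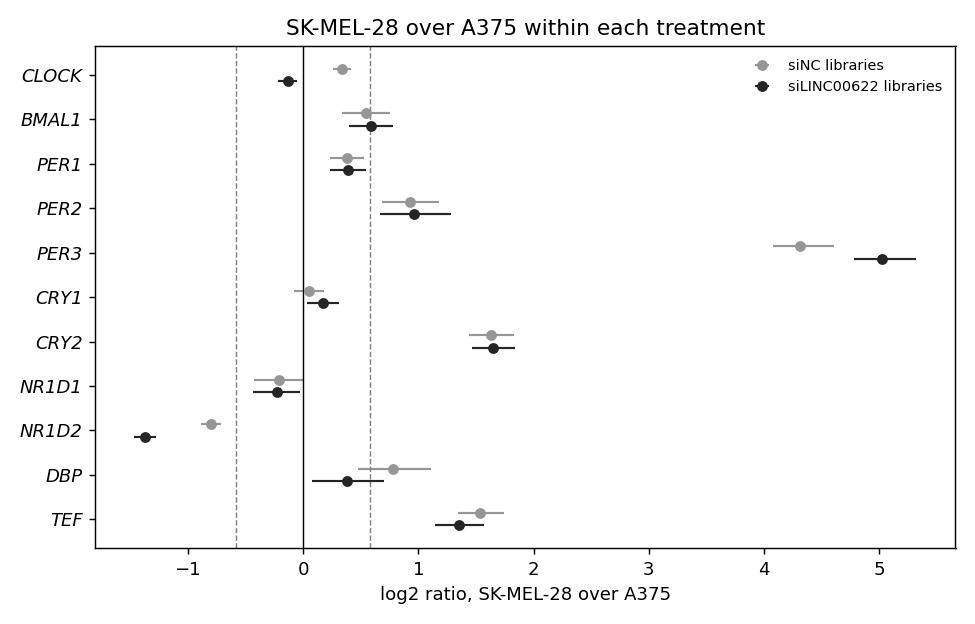
Log2 ratio of SK-MEL-28 over A375 for the clock genes and BMAL1 in the siNC and in the siLINC00622 libraries; bars are 95% Clopper-Pearson intervals of the count ratios (counting error only), and dashed lines mark 1.5-fold. PER3 is at 4.31 and 5.02, and NR1D2 is the only gene past 1.5-fold on the A375 side.

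Of the 32 other clock genes, 13 passed 1.5-fold between the lines in siNC libraries and 15 in siLINC00622 libraries, beside 57.0% and 57.3% of all genes. BHLHE41, an E-box repressor, had 6292 and 4481 counts in SK-MEL-28, against 90 and 59 in A375. It was 73.2-fold and 87.4-fold higher in SK-MEL-28. BMAL2 (listed as ARNTL2), a paralogue of BMAL1, had 53 and 32 counts in SK-MEL-28, against 811 and 800 in A375, so it was 13.8-fold and 19.9-fold lower in SK-MEL-28. The mean log2 ratio was 1.83 over the E-box and D-box driven genes and 0.56 over the RORE driven genes in siNC libraries. Their difference was 1.27 with means and 0.38 with medians, and PER3, CIART and BHLHE41 stood at 4.31, 3.32 and 6.19.

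The 3 members with the widest range of log2 CPM over the 4 libraries were PER3 (4.68), TEF (1.65) and NR1D2 (1.52). Among 12276 genes with a mean of at least 100 counts, the genes closest to PER3 by root mean square distance of centred log2 CPM were TNFRSF14-AS1 (0.05) and an unnamed transcript, MSTRG.4764 (0.08). Closest to TEF were MAD2L2 (0.05) and EVA1A (0.07), and closest to NR1D2 were ZNF324B and STARD13 (0.04 for both). With 4 libraries many genes share a pattern, and the distances are a description.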

How the data were processed

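RNA-seq libraries of 2 melanoma lines under 2 siRNA treatments were analysed, 4 in all with 1 per condition, grouped by the line and treatment in their labels. The counts the authors deposited are whole reads per gene. The CPM values the authors deposited divide counts by the library total, and the FPKM values the authors deposited divide CPM by gene length. 4 TPM columns were not used. The submitters' processing notes name HISAT2, HISAT, TopHat2, Bowtie2 and hg19, and the counter and annotation are not given in the sources used here. Positions come from GRCh38 (GENCODE 29) and GRCh38.p14 (RefSeq), by gene identifier.

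Ratios used TMM (edgeR 4.0.16, R 4.3.3) with a prior count of 2, at least 10 counts and a fold change of 1.5. Fits used edgeR's quasi-likelihood test, with Benjamini-Hochberg adjustment over all genes. Between samples, the p-values measure only the spread between these libraries. In data simulated for the treatment fit on 16614 genes at a dispersion of 0.005, 94 of 94 genes planted at log2 1 and 106 of 106 at log2 2 were called, and 7 unchanged genes; the real fit estimated a dispersion of 0.0090. Alternatives used DESeq2 1.42.0, other scalings, priors, filters and folds, deposited FPKM, and removal of GC content and length trends (97.6% of genes have a value).

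Members and lists were chosen with earlier results of these data known. Named genes are the members, BMAL1, LINC00622, clock genes past 1.5-fold in the same or in opposite directions in both lines, genes overlapping a member, and the 2 nearest in pattern to 3 members. FOS, CCN1, SGK1, FKBP5, TSC22D3, KLF9, KLF10, CIART, BHLHE40, BHLHE41, BMAL2, and the marker genes were named after their values were seen.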

Additional observations from a re-analysis of the deposited data

Results flagged for a closer look

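KLF10, a transcription factor gene and a clock output, was the 1 clock gene, of 42 looked at, whose log2 ratios of siLINC00622 over siNC lay on opposite sides of 0 in the lines with both counting intervals off 0. It had 783 (siNC) and 1230 (siLINC00622) counts in SK-MEL-28, against 1751 and 1849 in A375. Its log2 ratios were 0.62 (interval 0.49 to 0.75) and -0.13 (-0.23 to -0.04). The difference between the lines was not tested, since each condition has 1 library.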

How the results depend on the processing

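Of 280 member ratios recomputed under other scalings, prior counts, FPKM with a pseudocount, and removal of GC content and length trends, 235 stayed within the counting interval, 45 moved outside it and 0 past 1.5-fold changed sign. The number of members past 1.5-fold was 0 in both lines at 2-fold and with FPKM plus 1, which shrinks low genes, and it was 3 between the lines in siNC libraries at 2-fold. The difference between the arms moved in SK-MEL-28 to -0.39 with medians and in A375 to -0.13 with FPKM plus 1. Between lines it moved to 0.38 in both treatments with medians and to 0.73 and 0.64 with FPKM plus 1. The treatment fit called 75 genes, against 305 with DESeq2, 53 with DESeq2 size factors, 121 without a filter, 1 with library totals and 0 without the block, and 0 members in each. The adjusted p of PER2, NR1D1 and DBP was NA in DESeq2, and that of PER2 ran from 0.093 to 1.00 elsewhere. Without the block, 28 genes and 0 members had an unadjusted p below 0.05. Leaving out 1 library leaves no residual degree of freedom, and the value is then the ratio of the other line or treatment, given above. No paired analysis by replicate number was possible because the labels carry no such numbers; the block is the cell line.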
